A study of Mus musculus with 9 samples.

Results

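The 38 genes described here encode the proteins that copy DNA and the factors that commit a cell to copying it. They were taken by symbol from a list of DNA replication and G1/S genes, a rule that itself uses no measured value. The list was chosen with earlier results of these data known. All 38 were found among the 17482 genes of the deposited table. They fall into 9 roles: the MCM helicase (7 genes), origin licensing (4), helicase activation (4), DNA polymerases and primase (5), the sliding clamp with its loader and the Okazaki fragment enzymes (5), nucleotide supply (4), chromatin copying (3), E2F transcription factors (4) and E-type cyclins (2). The data are bulk RNA sequencing of mouse tumour tissue, labelled MB, taken at postnatal day 8 or 9. All 9 libraries carried fSMO-M2, a conditional allele of SMO-M2 (an always-active mutant of the Hedgehog signal transducer Smoothened), and the hGFAPcre driver, which expresses Cre recombinase from a human GFAP promoter active in neural progenitors that give rise to granule neurons and glia. SG tumours (genotype fSMO-M2;hGFAPcre, n = 3 libraries) carried no floxed Yap1 allele. YSGr and YSGnr tumours (genotype fYap1;fSMO-M2;hGFAPcre, n = 3 libraries each) carried it in addition, and are named rescued (YSGr) and non-rescued (YSGnr). What counted as rescue, the sex of the animals and whether replicate libraries stem from different animals are not stated in the labels. The p-values here thus measure the spread between libraries, which may be technical in part or, outside YSGnr, in whole. Within YSGnr the sex-linked transcripts given below differed between replicate 1 and the others, as they do between animals of different sex.

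A cell prepares to copy its DNA in G1, when the origin recognition complex, CDC6 and CDT1 load the ring-shaped MCM helicase onto origins. In S phase CDC45 and the GINS complex switch the helicase on, polymerase alpha with its primase lays down primers, and polymerases epsilon and delta extend them behind the PCNA clamp. Cyclin E and its kinase inactivate the retinoblastoma protein and so release the E2F activators, which switch on most of these genes; E2F7 and E2F8 switch them off again. In the postnatal cerebellum granule neuron progenitors divide under Hedgehog signalling and leave the cell cycle as they become granule neurons, and tumours with active Smoothened arise from such progenitors.

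The targeted gene was checked first. Yap1 stood at 5.04, 5.11 and 5.03 log2 CPM (CPM, reads of a gene scaled to the library's depth, on the log2 scale) in the SG libraries, at 4.44, 3.31 and 2.79 in YSGr and at 2.79, 2.57 and 1.99 in YSGnr, so each library with the floxed allele lay below each SG library. The effective library size was 18.0 to 32.2 M (mega) reads in 8 libraries and 3.93 M in YSGnr replicate 1, where the lowest member, Ccne1, rested on about 43.1 reads. In that library the scaled values imply 9.68 M reads in all, and its CPM over the tested genes sum to 2465900, against 868600 to 1081400 in the other 8. Its scaling thus places every CPM, the members' sum included, on another footing than a share of its reads, although its median of 4.56 log2 CPM over those genes lies within the 4.52 to 4.64 of the others. No member was at the table's lowest value, -3.52 log2 CPM, in any library. The 12 granule neuron progenitor markers were also all above it in every library, with medians of 8.04 to 8.28 log2 CPM in SG, 6.39 to 8.07 in YSGr and 7.78 to 8.16 in YSGnr. The Xist transcript of the inactive X chromosome ranged from 9.81 to 10.7 log2 CPM over the YSGr libraries. It was at 10.8 in YSGnr replicate 1 and at -0.25 or lower in the other 5 libraries. The Y-linked gene Ddx3y was at 5.82, 5.84 and 5.99 log2 CPM in SG and at 5.38 and 4.97 in YSGnr replicates 2 and 3. In all YSGr libraries and YSGnr replicate 1 Ddx3y was at the table's lowest value, -3.52. By these 2 genes the SG libraries read as male and the YSGr libraries as female. Whatever differs with sex and whatever differs with the group thus cannot be told apart between YSGr and SG. YSGnr replicate 1 reads as female and YSGnr replicates 2 and 3 as male. Sex is thus unbalanced in the comparisons with YSGnr as well, and its part there was not tested. YSGr replicate 3 and YSGnr replicate 1 stood apart from their groups. The median chi-square per gene between replicates was 21.9 and 23.4 for the pairs with YSGr replicate 3. It was 61.2 and 74.5 for those with YSGnr replicate 1, and 2.06 to 5.37 for the other 5 pairs. Its expected split follows the summed reads, so the scaling of YSGnr replicate 1 enters the values of that library's pairs. Pearson's correlation of log2 CPM was 0.954 and 0.949 for the pairs with YSGr replicate 3. It was 0.933 and 0.933 for those with YSGnr replicate 1, and 0.979 to 0.991 for the other 5. Counts of called members are therefore given with and without YSGr replicate 3 and YSGnr replicate 1, and values without YSGr replicate 3 are given in each role. Calls without YSGr replicate 3 rest on 2 YSGr libraries. That library had the highest member median of its group, so leaving it out lowers the YSGr means of the members. Such calls are a description and no separate support.

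Most of these genes are known E2F targets, and their promoters are described before their levels. RefSeq promoter windows (GRCm38.p6, 250 bases before to 50 after a transcription start) were at hand for 32 of the 38 members, and were searched on both strands for the E2F letters TTTCCCGC, TTTCGCGC, TTTGCCGC and TTTGGCGC. A match was found for 14 of the 32 members (43.8%), 13 of 45 other replication genes (28.9%), 1 of 27 mitosis genes (3.70%) and 704 of 27025 genes of the promoter table (2.61%). The 14 are Mcm3, Mcm5, Mcm6, Mcm7, Orc1, Cdc6, Cdt1, Pola1, Pold1, Rfc3, Lig1, Uhrf1, E2f2 and E2f7. For CHR, a motif of genes expressed in mitosis searched as TTTGAA and TTCGAA, the order was the other way round, with 7 of 32 members (21.9%) against 22 of 27 mitosis genes (81.5%) and 21.7% of all genes. The CCAAT box, the letters bound by NF-Y, matched in 20 of 32 members (62.5%), 22 of 27 mitosis genes (81.5%) and 41.1% of all genes. A match is a description of the letters and no evidence of binding. Stretches before the RefSeq start that hold matches follow for the members with 2 or more E2F matches in the window and at least 1 before that start. Orc1 and Pola1 were added after their values were seen because they were lower in YSGr than in YSGnr. By GENCODE's gene positions the marked letters of Mcm7, Rfc3 and Orc1 lie within the gene, and shorter stretches are shown for these. Capitals mark the E2F letters, and each sequence is read 5′ to 3′ along the gene's strand. Mcm6 lies at chr1:128359725-128359835 (minus strand), Mcm7 at chr5:138172030-138172059 (minus), Rfc3 at chr5:151651209-151651229 (minus), Mcm5 at chr8:75109336-75109387 (plus), Orc1 at chr4:108579416-108579445 (plus) and Pola1 at chrX:93632266-93632313 (minus).
Mcm6: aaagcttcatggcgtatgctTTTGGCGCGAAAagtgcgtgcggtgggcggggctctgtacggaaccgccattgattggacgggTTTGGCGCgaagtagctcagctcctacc
Mcm5: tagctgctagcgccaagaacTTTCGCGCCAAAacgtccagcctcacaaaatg
Mcm7: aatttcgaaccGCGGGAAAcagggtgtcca
Rfc3: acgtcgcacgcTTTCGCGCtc
Orc1: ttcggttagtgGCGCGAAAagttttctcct
Pola1: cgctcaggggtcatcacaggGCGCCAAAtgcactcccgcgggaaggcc
In Mcm6 and Mcm5 the run of 12 capitals holds 2 overlapping matches, 1 on each strand, and Mcm6 holds a further match nearer the start. Mcm7, Orc1 and Pola1 show the letters of the opposite strand. In YSGr the median log2 difference from SG was -0.73 for the 14 members with a match and -0.70 for the 18 without, a gap that was not tested.

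**Figure D1:**
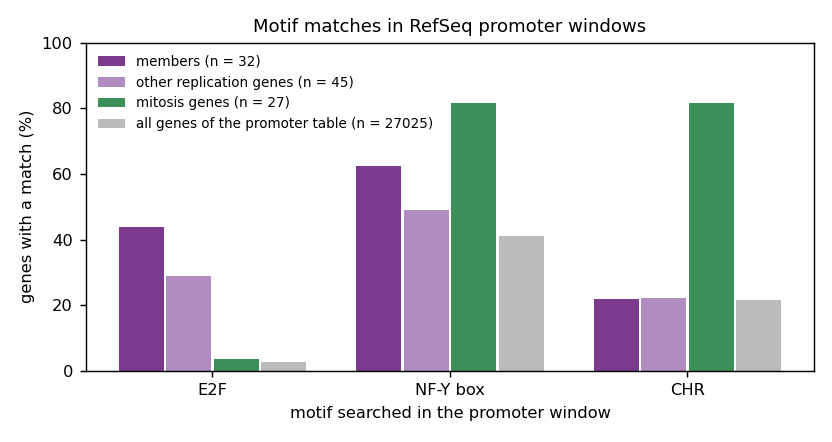
Bars give the percentage of genes (vertical axis, from 0) whose promoter window holds an E2F, NF-Y box or CHR match, for the 32 members with a window, 45 other replication genes, 27 mitosis genes and all 27025 genes of the promoter table. E2F matches reach 43.8% in the members and CHR matches 81.5% in the mitosis genes.

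Across the 38 genes the libraries ordered themselves in much the same way. The median difference from the SG mean was -1.07 and -1.27 on the log2 scale in YSGr replicates 1 and 2, 0.18 in YSGr replicate 3, and 0.04, 0.39 and 0.59 in YSGnr replicates 1, 2 and 3. In YSGr replicate 1, 37 members lay below all 3 SG libraries, and in replicate 2 all 38 did; in replicate 3 only 9 lay below, 24 lay above and 5 lay within the SG range. For 35 members the 2 lowest of the 9 libraries were YSGr replicates 1 and 2, and for 24 the highest was YSGnr replicate 3. The summed level of the members was 3294 to 3426 CPM in SG, 1388 to 3698 CPM in YSGr and 3594 to 5322 CPM in YSGnr. The SD between replicates had a median of 0.07 log2 units over the members in SG, 0.74 in YSGr and 0.29 in YSGnr. In bulk tissue, fewer dividing cells and less RNA of these genes per cell cannot be told apart.

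**Figure D2:**
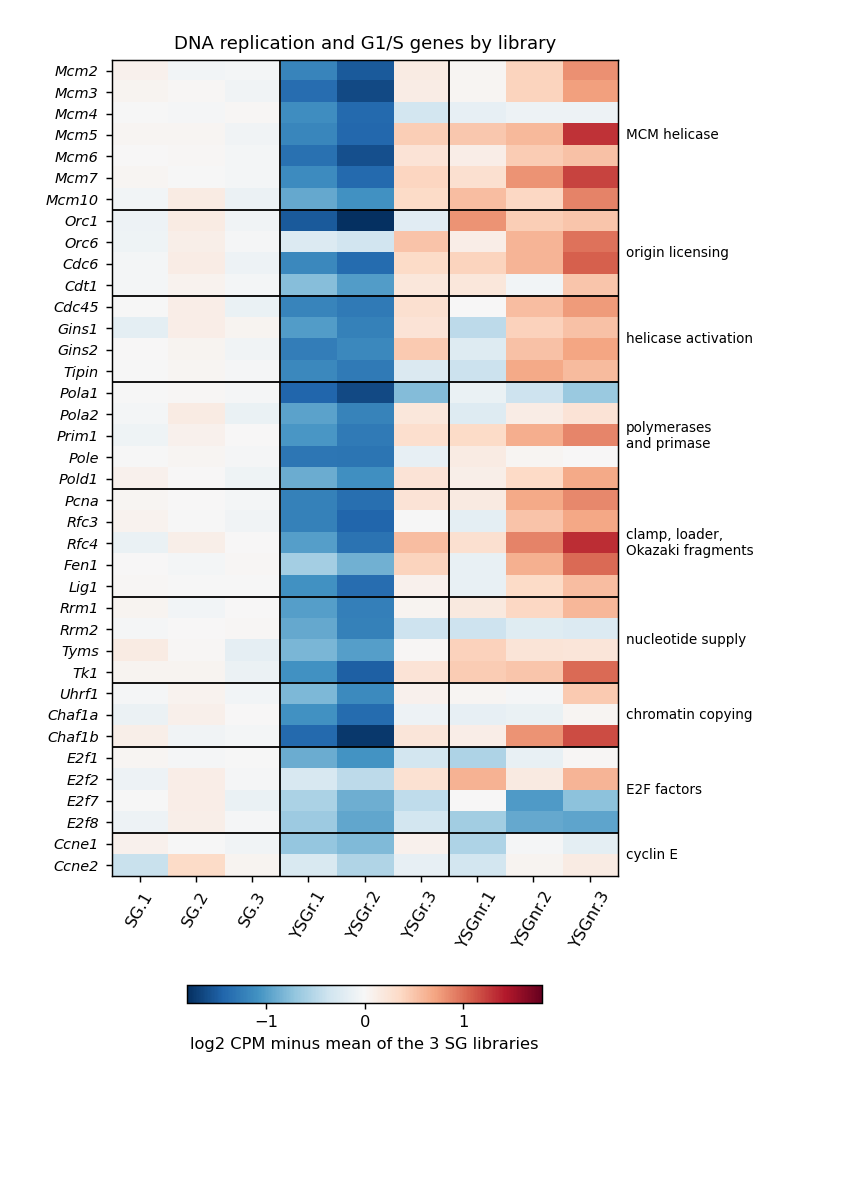
Each row is a gene and each column a library; the colour gives log2 CPM minus the mean of the 3 SG libraries (scale below, blue lower, red higher), with genes grouped by role. YSGr replicates 1 and 2 are blue throughout, YSGr replicate 3 and the YSGnr libraries are mostly pale or red, and E2f7 and E2f8 are blue in YSGnr replicates 2 and 3.

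The comparison of YSGr with SG gave values below 0 for all 38 members, with a median log2 difference of -0.72 beside -0.02 over all 15251 genes tested. At an adjusted p below 0.05 (limma) 3 passed the test: the helicase subunit gene Mcm4, the polymerase gene Pola1 and the ribonucleotide reductase gene Rrm2 fell, and no member rose. Of all genes tested, 3.97% were called lower and 6.58% higher in this comparison. The libraries of the groups did not overlap for 9 members, all lower in YSGr, where 17.3% of all genes were lower without overlap. At an unadjusted p below 0.05 there were 15 members, beside 3987 of all 15251 genes tested. YSGr replicate 3 decided most of the count of called members: without it, 33 members fell, with a median of -1.18, where 13.5% of all genes were called lower. The exceptions were Orc6, Fen1, E2f2, E2f7 and Ccne2. Without YSGnr replicate 1, which enters through the shared estimate of the spread, 7 members were lower and 6.27% of all genes. Leaving out SG replicate 1 or 2, or YSGr replicate 1, left 0 members past the threshold, and the share of all genes called in either direction fell with it, from 10.5% to 2.15, 2.26 and 2.62%. Leaving out SG replicate 3 or YSGr replicate 2 left 1 (2.73 and 2.35% of all genes), and leaving out YSGnr replicate 2 or 3 left 2 (8.80 and 8.95%).

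In YSGnr against SG, 29 members had values above 0 and 9 below, with a median log2 difference of 0.35 beside -0.01 over all genes tested. Only E2f8 passed the test, lower in YSGnr (limma), where 2.17% of all genes were called lower and 1.19% higher. At an unadjusted p below 0.05 there were E2f7 and E2f8, both lower, beside 3909 of all 15251 genes tested. The libraries did not overlap for 16 members higher in YSGnr and 4 lower, beside 16.9% and 21.3% of all genes. Without YSGr replicate 3 the same comparison called 8 members higher (Mcm5, Mcm7, Mcm10, Orc1, Cdc6, Prim1, Rfc4 and Tk1) and E2f8 lower. Of all genes, 6.94% were then called higher and 10.3% lower. YSGr libraries enter this comparison through the shared estimate of the spread alone. Without YSGnr replicate 1 it called 2 lower, E2f7 and E2f8, where 11.3% of all genes were called lower. No member passed when any 1 of the SG libraries, YSGr replicate 1 or YSGnr replicates 2 and 3 was left out, where 0.125 to 1.55% of all genes were called in either direction, against 3.36% with all libraries.

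In YSGr against YSGnr, the 2 groups with the floxed allele, 37 of 38 members had values below 0, with a median log2 difference of -0.98 beside 0.01 over all genes. Orc1 and Pola1 were called lower in YSGr (limma) and no member higher; 0.879% of all genes were called lower and 5.09% higher. At an unadjusted p below 0.05 there were 31, beside 5170 of all 15251 genes tested. Lower without overlap were 12, beside 7.46% of all genes. SG libraries enter this comparison through the shared estimate of the spread alone. With the 6 libraries of YSGr and YSGnr alone it called 0 members and 0% of all genes. Without YSGr replicate 3 the count was 34 lower, all but E2f7, E2f8, Ccne1 and Ccne2, where 20.6% of all genes were called lower. Without YSGnr replicate 1 it was 22, where 14.2% were. With a trend on transcript length and GC content removed from each library it was 23 lower, where 5.72% were. Omitting any library other than these 2 took it to 0, and took the share of all genes called in either direction from 5.97% to between 0.00656 and 0.0656%. The comparisons share libraries, so their values are not independent of each other.

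**Figure D3:**
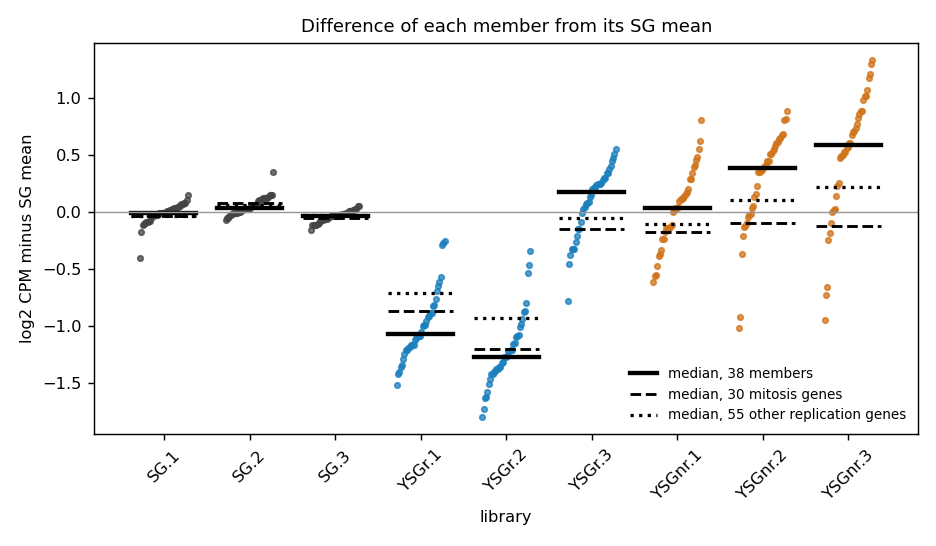
Each point is 1 of the 38 members in 1 library, plotted as log2 CPM minus its SG mean; thick bars give the median of the members, dashed bars that of 30 mitosis genes and dotted bars that of 55 other replication genes. YSGr replicates 1 and 2 have member medians of -1.07 and -1.27, whereas YSGr replicate 3 lies at 0.18.

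The MCM genes encode the replicative helicase: Mcm2 to Mcm7 form its ring, and Mcm10 binds it as it fires. Mcm4 (chromosome 16, 15623897 to 15637400, minus strand, GRCm38) was at 6.91, 6.90 and 6.93 log2 CPM in SG, at 5.80, 5.52 and 6.59 in YSGr and at 6.77, 6.82 and 6.82 in YSGnr. All YSGr libraries lay below all others, and YSGr replicate 3 lay nearest to them. Against SG, Mcm4 was 1.93-fold lower in YSGr, a log2 difference of -0.95 (SE 0.23, limma adjusted p = 0.0342). The call was lost without any 1 of the SG libraries, YSGr replicate 1 or 2 or YSGnr replicate 2 or 3, with adjusted p of at most 0.13, and with the 6 libraries of the comparison alone. Mcm2 was at 7.57, 7.44 and 7.45 log2 CPM in SG, at 6.30, 5.97 and 7.64 in YSGr and at 7.53, 7.88 and 8.31 in YSGnr. Here YSGr replicate 3 was above every SG library and the groups overlapped. The difference between YSGr and SG, -0.85 (95% interval -1.71 to 0.01), was not called (limma, adjusted p = 0.197), and without YSGr replicate 3 it was -1.35 (limma adjusted p = 0.00251). The other ring genes Mcm3, Mcm5, Mcm6 and Mcm7 and Mcm10 shared the shape of Mcm2, with YSGr replicate 3 above all SG libraries, and YSGr differed from SG by -0.56 (Mcm10) to -0.95 (Mcm3), none called. Without that library these 5 differences were -1.0 (Mcm10) to -1.5 (Mcm3), all called (limma). Mcm5 and Mcm7 were the furthest above SG in YSGnr among the 7, at 0.79 and 0.77, not called with all 9 libraries (limma, adjusted p = 0.269 and 0.267). Mcm4 was the only one of the 7 with a value below SG in YSGnr (-0.11), a difference between subunits that was not tested.

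Origin licensing genes load the helicase. Orc1, the largest subunit gene of the origin recognition complex (chromosome 4, 108579423 to 108614833, plus strand, GRCm38), was at 2.89, 3.13 and 2.93 log2 CPM in SG, at 1.47, 1.19 and 2.78 in YSGr and at 3.79, 3.43 and 3.49 in YSGnr. The 3 groups did not overlap, and YSGnr was the highest. Orc1 was 3.39-fold lower in YSGr than in YSGnr, a log2 difference of -1.76 (SE 0.36, limma adjusted p = 0.0368), the largest of the 38 in that comparison with all 9 libraries. It was -2.24 without YSGr replicate 3 (limma adjusted p = 0.000221), and without YSGnr replicate 1 it was -1.65 (limma adjusted p = 0.0283). Against SG it differed by -1.17 (SE 0.36, limma adjusted p = 0.0709) in YSGr and by 0.59 (SE 0.36, adjusted p = 0.322) in YSGnr, neither called. The call against YSGnr was lost without any SG library, YSGr replicate 1 or 2 or YSGnr replicate 2 or 3 (adjusted p at most 0.179) and with the 6 libraries alone. Orc1 also had the lowest level per length in SG of all members, 1.39 log2 CPM per kb of transcript, and rested on 58.7 reads in YSGr replicate 2. Cdt1, the loading factor that is destroyed once S phase begins, was at 5.61, 5.71 and 5.61 log2 CPM in SG, at 4.88, 4.63 and 5.85 in YSGr and at 5.84, 5.59 and 6.14 in YSGnr. YSGr replicate 3 was above SG and the groups overlapped; the difference from SG in YSGr was -0.52 (95% interval -1.16 to 0.12), and -0.89 without that library (limma, adjusted p = 0.0052). Cdc6, the ATPase that works with Cdt1, had means of 4.63 ± 0.12 log2 CPM for SG, 3.89 ± 0.94 for YSGr and 5.32 ± 0.35 for YSGnr (SD, n = 3), not called in any comparison with all 9 libraries. With YSGr replicate 3 left out, its difference between YSGr and SG went from -0.74 to -1.27 (limma adjusted p = 0.00228). Orc6, a small subunit of the same complex as Orc1, differed from SG in YSGr by -0.03 (SE 0.27, 95% interval -0.62 to 0.57). That mean joins libraries on opposite sides of SG: its YSGr replicates lay -0.25, -0.34 and 0.51 from the SG mean. It was -0.29 without YSGr replicate 3, and with the length and GC trend removed it was 0.16, neither called (limma adjusted p = 0.368 and 0.59). Of the 4 genes, 0 were called in YSGr against SG and 1 had an unadjusted p below 0.05.

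Helicase activation genes turn the loaded ring into a moving fork. Cdc45 and the GINS subunit genes Gins1 and Gins2 had SG means of 5.05 ± 0.12, 4.27 ± 0.16 and 5.98 ± 0.06 log2 CPM and YSGr means of 4.33 ± 0.88, 3.61 ± 0.79 and 5.34 ± 0.97 (SD, n = 3). For these 3 genes YSGr replicate 3 lay above every SG library. Tipin, which with its partner Timeless steadies paused forks, had means of 5.61 ± 0.03 log2 CPM for SG and 4.71 ± 0.56 for YSGr, and all 3 of its YSGr libraries lay below SG. Its difference from SG, -0.90 (SE 0.32), was not called (limma, adjusted p = 0.112). All 4 genes were called lower in YSGr (limma) when YSGr replicate 3 was left out, at -1.11 (Gins1) to -1.23 (Cdc45). In YSGnr, replicate 1 lay below all SG libraries for Gins1, Gins2 and Tipin while replicates 2 and 3 lay above them.

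Among the polymerase genes Pola1 gave the most distinct result. Pola1, the catalytic subunit gene of polymerase alpha (chromosome X, 93304767 to 93632155, minus strand, GRCm38), was at 5.99, 6.03 and 5.99 log2 CPM in SG, at 4.58, 4.37 and 5.22 in YSGr and at 5.89, 5.64 and 5.34 in YSGnr. The 3 groups did not overlap, with YSGnr between the others. The difference of YSGnr from SG was -0.38, and with the length and GC trend removed it was -0.04, neither called (limma). Further values of Pola1 are from the fit without that removal. With all 9 libraries Pola1 was the only member that passed the test in both comparisons of YSGr. It was lower 2.43-fold against SG, a log2 difference of -1.28 (SE 0.22, limma adjusted p = 0.0107). Against YSGnr it was lower 1.87-fold, a difference of -0.90 (SE 0.22, limma adjusted p = 0.048). Leaving out YSGr replicate 3, 31 members passed in both comparisons, where 13.5% and 20.6% of all genes were called lower against SG and against YSGnr. Without YSGnr replicate 1 there were 4, Mcm4, Tipin, Pola1 and E2f1, where 6.27% and 14.2% were. The 2 comparisons share their YSGr libraries, and the share of all genes called in both was not counted. The Pola1 call against SG was lost without SG replicate 1, SG replicate 2 or YSGr replicate 1 (adjusted p at most 0.0539). That against YSGnr was lost without any SG library, YSGr replicate 1 or 2 or YSGnr replicate 2 or 3 (adjusted p at most 0.2). It was also lost with no filter, median scaling, no variance trend, the replicate number as a block or the 6 libraries alone. Pola1 is X-linked, and all YSGr libraries and YSGnr replicate 1 had high Xist; the part of this in the result was not tested. Pole, the leading strand polymerase gene, had means of 6.55 ± 0.03 log2 CPM for SG, 5.63 ± 0.67 for YSGr and 6.61 ± 0.07 for YSGnr (SD, n = 3), with YSGr below both groups without overlap and no call (limma, adjusted p = 0.0631 against SG). Pold1 (lagging strand polymerase), Pola2 (the accessory subunit of polymerase alpha) and Prim1 (the primase that makes the RNA primer) differed from SG in YSGr by -0.58, -0.65 and -0.68, and overlapped with it through YSGr replicate 3. Without that library the differences of these 3 genes were -0.99, -1.08 and -1.16, and that of Pole was -1.31, all called (limma). Prim1 was above SG in all 3 YSGnr libraries, at 6.23 ± 0.27 against 5.61 ± 0.08 log2 CPM.

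Pcna encodes the clamp that ties polymerases to DNA. It was at 8.11, 8.08 and 8.04 log2 CPM in SG, at 6.86, 6.72 and 8.32 in YSGr and at 8.24, 8.75 and 8.94 in YSGnr, and per length it was the most abundant member in SG, at 7.47 log2 CPM per kb, followed by Mcm7 at 6.56. All YSGnr libraries lay above SG, and YSGr replicate 3 lay above SG as well. The YSGr difference from SG, -0.78 (SE 0.38, limma adjusted p = 0.233), was -1.29 (SE 0.20, limma adjusted p = 0.00197) without YSGr replicate 3. The clamp loader genes Rfc3 and Rfc4 had SG means of 5.26 ± 0.06 and 5.24 ± 0.11 log2 CPM, YSGr means of 4.38 ± 0.76 and 4.65 ± 1.0 and YSGnr means of 5.61 ± 0.46 and 6.07 ± 0.52 (SD, n = 3). Rfc4 had the largest difference from SG in YSGnr of the 38, 0.84 (SE 0.44), and it was not called (limma adjusted p = 0.255). Lig1, the ligase that seals Okazaki fragments, and Fen1, the nuclease that trims them, differed from SG in YSGr by -0.79 and -0.36. When YSGr replicate 3 was omitted, Rfc3, Rfc4 and Lig1 were at -1.32, -1.16 and -1.23, all called, and Fen1 at -0.74, not called (limma adjusted p = 0.0841). With all 9 libraries, of these 5 genes none was called in any comparison, and 2, 0 and 5 had an unadjusted p below 0.05 in YSGr against SG, YSGnr against SG and YSGr against YSGnr.

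Nucleotide supply genes make the building blocks. Rrm2, the S phase subunit gene of ribonucleotide reductase (chromosome 12, 24708241 to 24714146, plus strand, GRCm38), was at 6.98, 7.01 and 7.03 log2 CPM in SG, at 6.09, 5.79 and 6.63 in YSGr and at 6.64, 6.80 and 6.77 in YSGnr. Both groups with the floxed allele lay below SG in every library. Rrm2 was 1.79-fold lower in YSGr than in SG, a difference of -0.84 (SE 0.19, limma adjusted p = 0.0277). In YSGnr it differed by -0.27 (SE 0.19) and was not called (limma adjusted p = 0.384). The YSGr call was lost without any SG library or YSGr replicate 1 or 2, with adjusted p of at most 0.108. Rrm1, the large subunit gene of the same enzyme, was above SG in all 3 YSGnr libraries, at 8.28 ± 0.21 log2 CPM against 7.90 ± 0.05 (SD, n = 3), and not called. Tyms, which makes thymidylate, and Tk1, which salvages thymidine, differed from SG by -0.59 and -0.77 in YSGr and by 0.29 and 0.66 in YSGnr, none called. Once YSGr replicate 3 was omitted, Rrm1, Rrm2, Tyms and Tk1 were below SG in YSGr at -1.11, -1.07, -0.91 and -1.28, all called (limma). All 4 genes of this role were lower in YSGr than in YSGnr without overlap, at -0.56 (Rrm2) to -1.43 (Tk1), and had an unadjusted p below 0.05; none passed the adjusted threshold (limma, lowest adjusted p = 0.0547).

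Chromatin copying genes rebuild DNA methylation and nucleosomes behind the fork. Uhrf1, which recruits the maintenance DNA methyltransferase, was at 7.55, 7.63 and 7.52 log2 CPM in SG, at 6.75, 6.41 and 7.64 in YSGr and at 7.60, 7.55 and 8.04 in YSGnr. YSGr replicates 1 and 2 stood below all other libraries and replicate 3 stood among the SG and YSGnr libraries. Its difference from SG in YSGr was -0.63 (95% interval -1.27 to 0.00), not called (limma, adjusted p = 0.194). Without YSGr replicate 3 it was -0.98 (limma adjusted p = 0.00409). Chaf1a and Chaf1b encode subunits of the histone chaperone CAF-1. In YSGr they differed from SG by -0.85 and -0.97, and without YSGr replicate 3 by -1.24 and -1.57 (limma adjusted p = 0.000478 and 0.00343). In YSGnr Chaf1a was at 6.02 ± 0.09 log2 CPM against 6.10 ± 0.10 in SG and Chaf1b at 6.44 ± 0.54 against 5.74 ± 0.09 (SD, n = 3), and Chaf1b was above SG in all 3 libraries.

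The E2F genes set the programme in motion and end it. E2f1, the prototype activator, was at 6.58, 6.53 and 6.55 log2 CPM in SG, at 5.66, 5.47 and 6.23 in YSGr and at 6.0, 6.42 and 6.57 in YSGnr. YSGr did not overlap with SG, and the difference of -0.77 (SE 0.21) just missed the threshold (limma, adjusted p = 0.0501). E2f2, a second activator, differed from SG by -0.16 in YSGr and by 0.46 in YSGnr, neither called, and all its YSGnr libraries were above SG. E2f8, a repressor of the same targets (chromosome 7, 48866429 to 48881596, minus strand, GRCm38), was at 4.90, 5.10 and 4.98 log2 CPM in SG, at 4.34, 4.05 and 4.67 in YSGr and at 4.38, 4.07 and 4.04 in YSGnr. Every library with the floxed allele lay below every SG library, YSGr replicate 3 included. E2f8 was 1.78-fold lower in YSGnr than in SG, a difference of -0.83 (SE 0.18, limma adjusted p = 0.043). Its difference of -0.64 in YSGr just missed the threshold (SE 0.18, limma adjusted p = 0.0521). The YSGnr call was lost without any SG library, YSGr replicate 1 or YSGnr replicate 2 or 3 (adjusted p at most 0.177), with no variance trend and with the replicate block. E2f7, the other repressor, had means of 5.44 ± 0.12 log2 CPM for SG, 4.80 ± 0.22 for YSGr and 4.86 ± 0.53 for YSGnr (SD, n = 3). It was low in YSGnr replicates 2 and 3, at 4.41 and 4.70, and at 5.45 in replicate 1, within the SG range. In YSGr against YSGnr, E2f7 and E2f8 differed by -0.06 (95% interval -0.61 to 0.50) and 0.19 (95% interval -0.21 to 0.59), and E2f8 was the only member of the 38 with a value above 0. Without YSGnr replicate 1 both were above 0, at 0.24 and 0.30, and without YSGr replicate 3 they were at -0.14 and 0.04, never called (limma). From SG, YSGr without replicate 3 differed in E2f1, E2f2, E2f7 and E2f8 by -0.99, -0.38, -0.72 and -0.80, of which E2f1 and E2f8 were called.

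The E-type cyclin genes differed least as a role, with a median of -0.39 in YSGr against SG. Ccne1 was at 4.11, 4.02 and 3.96 log2 CPM in SG, at 3.34, 3.23 and 4.11 in YSGr and at 3.47, 4.01 and 3.85 in YSGnr. Ccne2 was at 3.87, 4.63 and 4.33 in SG, at 4.01, 3.74 and 4.12 in YSGr and at 3.94, 4.33 and 4.42 in YSGnr. For both genes the groups overlapped in every comparison. No difference was called in either (limma), and none had an unadjusted p below 0.05; in YSGr against SG the 95% intervals were -1.02 to 0.08 for Ccne1 and -0.82 to 0.18 for Ccne2. Without YSGr replicate 3 Ccne1 was lower in YSGr by 0.75 (SE 0.18, limma adjusted p = 0.0151), and Ccne2 was still not called.

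**Figure D4:**
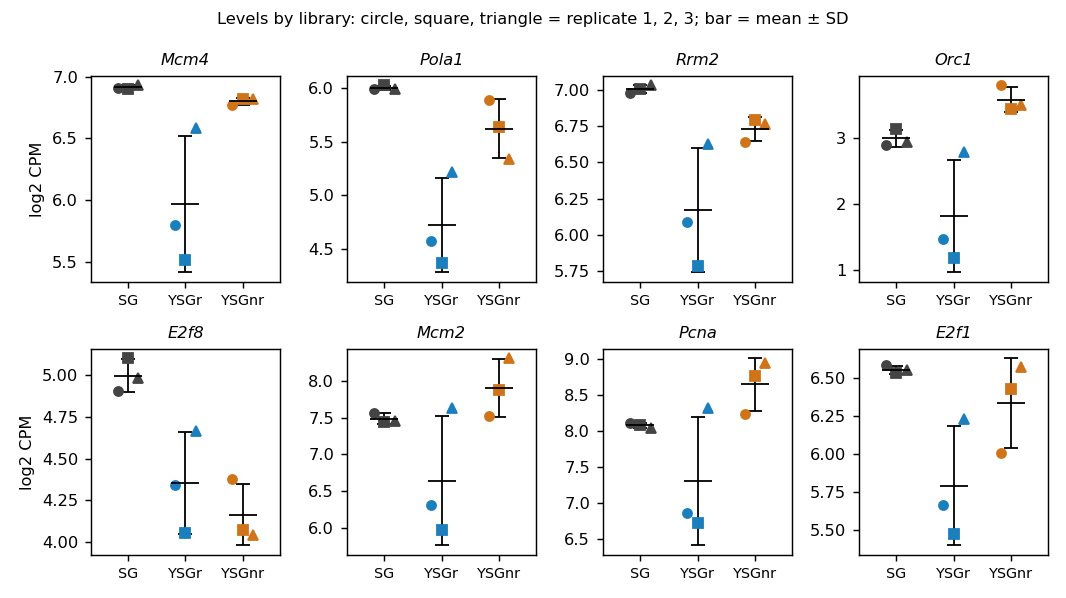
Levels of 8 members in log2 CPM by group (axes differ in range and do not start at 0); circles, squares and triangles are replicates 1, 2 and 3, and bars give the mean and SD of 3 libraries. YSGr replicate 3 lies near or above SG for Mcm2 and Pcna and below SG for Mcm4, Pola1, Rrm2, E2f1 and E2f8.

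Further cell cycle genes were counted beside the members. In YSGr against SG, 11 of 55 other replication genes fell and none rose (limma), with a median of -0.52, and 52 had values below 0. By limma they include the chromatin remodeller gene Hells (-0.92, SE 0.16, adjusted p = 0.011), the checkpoint mediator gene Clspn (-0.97, SE 0.19, adjusted p = 0.0164), the clamp unloader gene Atad5 (-0.67, SE 0.14, adjusted p = 0.0206) and the origin recognition gene Orc2 (-0.61, SE 0.13, adjusted p = 0.021). Of 17 other G1/S control genes 1 fell and 1 rose: Rbl1, a relative of the retinoblastoma gene, differed by -0.91 (SE 0.21, adjusted p = 0.0266) and Fbxw7, which marks cyclin E for destruction, by 0.80 (SE 0.21, limma adjusted p = 0.0395). Of 30 mitosis genes 10 fell, including the kinetochore genes Cenpe (-1.0), Bub1 (-1.0) and Cenpf (-0.86), with a median of -0.75. In YSGnr against SG, 1 of 55, 0 of 17 and 1 of 30 were called, each lower, and 6, 3 and 4 had an unadjusted p below 0.05. In YSGr against YSGnr 4 of 55 were lower, 1 of 17 higher and 1 of 30 lower. The comparison of YSGr with SG, without YSGr replicate 3, called 46 of 55 lower, 9 of 17 lower and 1 higher, and 30 of 30 lower. YSGr against YSGnr then called 47 of 55 lower and 2 higher, 11 of 17 lower and 2 higher, and 26 of 30 lower. YSGnr against SG called 6 of 55 higher and 4 lower, 2 of 17 lower and 3 of 30 lower. Of all genes, 13.5, 20.6 and 10.3% were called lower in these 3 comparisons and 14.4, 22.2 and 6.94% higher. Without YSGnr replicate 1, YSGr against SG called 15 of 55, 2 of 17 and 12 of 30 lower and 1 of 17 higher. YSGr against YSGnr called 29, 3 and 3 lower and 1, 1 and 0 higher. Of all genes, 6.27 and 14.2% were called lower in these comparisons and 9.42 and 16.8% higher.

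The members and the mitosis genes parted in some libraries. In YSGr replicates 1 and 2 the mitosis median was -0.87 and -1.20 below SG, near the members' -1.07 and -1.27. In YSGr replicate 3 it was -0.15 where the members had 0.18, and in YSGnr replicates 2 and 3 it was -0.09 and -0.12 where the members had 0.39 and 0.59. These gaps are descriptions of single libraries and were not tested. With a trend on transcript length and GC content removed, the members' medians were -0.01 in YSGr replicate 3 and 0.36 and 0.59 in YSGnr replicates 2 and 3, and the mitosis medians -0.10, -0.09 and 0.00.

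Transcript length moved with the differences in some libraries. Across the 38 members, Spearman's rho between length and the difference from SG was -0.51 and -0.36 in YSGnr replicates 2 and 3 and -0.26 in YSGr replicate 3, and -0.04, 0.00 and 0.13 in YSGr replicates 1 and 2 and YSGnr replicate 1. Over all genes tested with a length, the values were -0.55, -0.52 and -0.42, and 0.17, 0.14 and -0.08. The points of a panel share 1 library and are not independent. The members' median length, 3.02 kb, was close to that of all genes, 3.12 kb. Pola1 and E2f7, of 5346 and 5473 bases, are among the longest members and low in YSGnr replicates 2 and 3, whereas Rfc4 and Prim1, of 1279 and 1583 bases, are among the shortest and high there. Pole, the longest of the 38 at 7163 bases, was at the SG level in both libraries. Other long members lay above SG there, among them Mcm10 (4867 bases, 0.37 and 0.89) and Cdc6 (4614 bases, 0.61 and 1.07). The part of length in the members' differences was not tested beyond the removal of the trend given above.

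**Figure D5:**
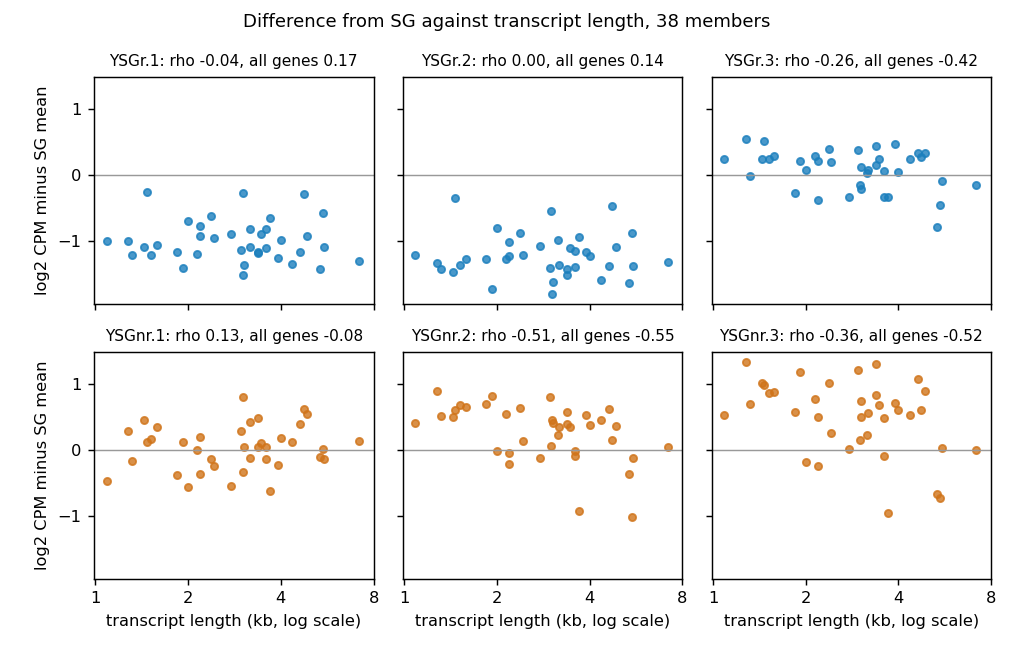
Each panel is 1 library and each point 1 of the 38 members, with transcript length in kb on a log scale on the horizontal axis and log2 CPM minus the SG mean on the vertical axis. Longer members lie lower in YSGnr replicates 2 and 3 (rho -0.51 and -0.36), and no such slope is seen in YSGr replicates 1 and 2 (rho -0.04 and 0.00).

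Markers of other cells moved with the groups as well. Beside the members' difference between YSGr and SG, 10 of 12 mature granule neuron markers rose in YSGr (limma), with summed levels of 1607 to 2572 CPM against 962 to 1245 CPM in SG. All 8 oligodendrocyte markers rose (2499 to 3909 against 615 to 1175 CPM), as did 4 of 8 Purkinje cell markers (1397 to 2312 against 836 to 915 CPM) and 2 of 8 astrocyte markers (2187 to 3116 against 2172 to 2267 CPM). Of 12 granule neuron progenitor markers, Hhip, Ptch1 and Ccnd1 fell, 3 in all (2626 to 3969 against 4112 to 4234 CPM), and of 6 erythrocyte markers 3 fell (343 to 600 against 779 to 1120 CPM). None of 8 microglia and 8 endothelial markers was called, and 1 and 0 had an unadjusted p below 0.05 (166 to 205 against 200 to 214 CPM and 225 to 261 against 246 to 276 CPM). No marker of these lists was at the table's lowest value in any library. Within YSGr, replicate 3 had the lowest summed level of mature granule neuron markers, 1607 CPM, and the highest of progenitor markers, 3969 CPM. In YSGnr against SG, 5 of 12 mature granule neuron, 2 of 8 oligodendrocyte and 2 of 8 Purkinje cell markers rose, and 3 of 8 endothelial markers fell. In YSGr against YSGnr, 11 of 12 mature granule neuron, 7 of 8 Purkinje cell and 3 of 8 endothelial markers were higher in YSGr and 1 of 6 erythrocyte markers was lower. Among the markers, YSGr against SG without YSGr replicate 3 called 11 of 12 mature granule neuron, 8 of 8 oligodendrocyte, 8 of 8 Purkinje cell and 3 of 8 astrocyte markers higher, and 8 of 12 progenitor and 4 of 6 erythrocyte markers lower. Of all genes, 14.4% were called higher there and 13.5% lower. Without YSGnr replicate 1 the Purkinje count in YSGr against SG was 7 of 8, where 9.42% of all genes were called higher. YSGr against YSGnr then called 4 of 8 microglia and 3 of 6 erythrocyte markers lower, where 14.2% of all genes were. The part of cell composition in the members' differences was not tested.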

How the data were processed

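RNA from 9 tumour libraries (3 groups of 3, grouped by genotype and rescue label) was sequenced on a DNBseq instrument, per the labels' protocols. The table deposited by the authors holds log2 CPM values. The submitters' processing notes name Trimmomatic, Bowtie2, RSEM, Picard, edgeR and mm10, without their roles; the gene annotation and scaling were not given in the sources used here. Of the low values, 64.6 to 73.6% per library came out as whole reads (within 0.02), short of nearly all, so no count test was run. Genes above 0 log2 CPM in at least 3 of 9 libraries were kept (15251). A group-means model with a mean-variance trend was fitted to all 9 libraries in limma 3.58.1 (R 4.3.3), two-sided, with Benjamini-Hochberg adjustment over the 15251 genes and a threshold of 0.05. The fit was tested on simulated data.

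The members and lists were chosen with earlier results of these data known. Named genes are all members, with values per library for those called and for 7 central ones, and up to 4 called genes a list by lowest adjusted p. Transcript lengths and positions come from GENCODE M21 (GRCm38). In all, 21 alternatives were run. The effective library size, which includes the authors' scaling, was 3.93 M reads in YSGnr replicate 1 (9.68 M summed) and 18.0 M or more in the others. Whether replicate numbers pair the libraries is not stated in the labels. Deviations of same-numbered libraries from their group means correlated at -0.23 to 0.24 over 9 pairs, and those of other pairs at -0.25 to 0.23. These values cannot decide it, since the 3 deviations of a group are tied to each other.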

Additional observations from a re-analysis of the deposited data

Results flagged for a closer look

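For 2 members the difference from SG was called different between YSGr and YSGnr by the test of that difference itself. That test is the comparison of YSGr with YSGnr (limma), which the SG libraries enter through the shared estimate of the spread. With the 6 libraries of YSGr and YSGnr alone, neither Orc1 nor Pola1 was called (limma adjusted p = 0.16 and 0.176), and 0% of all genes were. Orc1 differed by -1.76 on the log2 scale (adjusted p = 0.0368), lower than SG in 3 of 3 YSGr libraries and higher in 3 of 3 YSGnr libraries. Pola1 differed by -0.90 (limma adjusted p = 0.048), and was lower than SG in all 3 libraries of each group, further so in YSGr. With the length and GC trend removed, its difference from SG was -0.04 in YSGnr (limma adjusted p = 0.936) and -1.13 in YSGr (limma adjusted p = 0.0283).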

How the results depend on the processing

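No called member changed direction under any of the 21 alternatives, but counts of called members moved widely, and so did the share of all genes called, given in brackets. In YSGr against SG (3 members, 10.5%) the count was 5 with a stricter filter, median scaling, quantile normalization or the length and GC trend removed (10.2 to 13.9%), and 37 with array weights (63.3%), whose estimation stopped before it converged. In YSGnr against SG (1 lower, 3.36%) it was 26 with array weights (48.0%), 23 of them higher and 3 lower, and 0 with no variance trend (2.83%). In YSGr against YSGnr (2, 5.97%) it was 1 with no filter, median scaling or no variance trend (2.07 to 3.90%), 23 with the length and GC trend removed (12.6%), 35 with array weights (65.4%) and 0 with the 6 libraries alone (0%). Leaving out 1 library each gave 0 to 33, 0 to 9 and 0 to 34 in the 3 comparisons (2.15 to 27.9%, 0.125 to 21.8% and 0.00656 to 42.8%). Leaving out YSGr replicate 3 and YSGnr replicate 1 together gave 36, 27 (24 higher, 3 lower) and 35 (49.5, 52.9 and 64.7%). Removing the length and GC trend without YSGr replicate 3, chosen after seeing the data, gave 36, 15 (12 higher, 3 lower) and 34 (36.0, 17.7 and 43.9%). With the replicate number as a block the counts were 4, 0 and 11 (7.83, 2.24 and 5.64%). Whether the numbers pair the libraries is not known. The cause of these shifts was not tested. Depth limits Ccne1 and Orc1 most, with 43.1 reads for Ccne1 in YSGnr replicate 1.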

Other observations

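The replication-dependent histone genes, which supply nucleosomes in S phase and whose messages mostly lack a poly(A) tail, did not follow the members in every library. The median of 54 such genes was 0.91, 0.07 and -0.31 log2 CPM over the SG libraries, -1.40, -1.34 and 0.82 over the YSGr libraries and 5.37, 0.28 and 1.38 over the YSGnr libraries. YSGnr replicate 1 stood far above the rest, while the median of the 38 replication and G1/S genes there was 0.04 above SG. Of the 37 that passed the low-value filter, 2 were higher in YSGnr than in SG (limma), beside 1.19% of all genes. With all 9 libraries none was called in YSGr against SG or against YSGnr, where 1 and 22 had an unadjusted p below 0.05. Without YSGr replicate 3 the comparisons of YSGr with SG and with YSGnr called 1 and 16 lower and 1 and 0 higher. Of all genes, 13.5 and 20.6% were then called lower and 14.4 and 22.2% higher. In YSGnr 7 were then higher than in SG, beside 6.94% of all genes. Without YSGnr replicate 1 the comparisons of YSGr called 0 and 10 lower and 1 and 0 higher. Of all genes, 6.27 and 14.2% were then called lower and 9.42 and 16.8% higher. In YSGnr 4 were then higher than in SG, beside 10.6% of all genes.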
